A study of Mus musculus with 15 samples.

Results

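The genes examined here are 10 genes of cartilage and chondrocytes, namely Col2a1, Acan, Sox9, Col10a1, Col9a1, Comp, Prg4, Matn1, Hapln1 and Ihh. They were picked by name, and every non-control probe whose accession maps to one of those symbols was kept, which gave 12 of the 55681 probes on the array. Col9a1 and Prg4 had 2 probes each, Sox9 had 1 probe printed in 10 spots that were averaged, and the other genes had 1 probe in 1 spot. The arrays measured RNA from the femur of 15 male C57BL/6J mice, labelled as 9 weeks old, with 1 array for each mouse. That age is the one at the start of the experiment. In the Surgery groups the femur carried a segmental bone defect, an excised stretch of the shaft that was bridged with a scaffold and a collagen sponge holding saline, and the Sham groups, which the study calls sham surgery, are labelled as unoperated sham controls. Mice of the FLT groups were flown on the International Space Station after the operation, and mice of the G groups stayed on the ground. There were 4 arrays each of G-Sham, G-Surgery and FLT-Sham and 3 of FLT-Surgery. All samples are labelled as callus, including those of Sham mice, and the study took the midshaft of the operated bone with both ends cut off and the same stretch of the Sham bones. Whether muscle and tendon were stripped from the samples used for RNA is not given in the sources used here, and the RNA was of low integrity. The defect is of a size that does not heal without treatment, which limits it as a model of normal repair.

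Cartilage is built by chondrocytes under the transcription factor Sox9, which turns on the genes of its matrix. Col2a1 encodes the chain of type II collagen, the main fibre of cartilage, Col9a1 a collagen that coats that fibre, Acan the aggrecan core protein that holds water, and Hapln1 the link protein that ties aggrecan to hyaluronan. Matn1 and Comp encode matrix proteins that join these parts, and Comp is also made in tendon and ligament. Prg4 encodes lubricin, the lubricant of joint surfaces and tendon sheaths. When chondrocytes enlarge before bone forms they make the signal Ihh and the collagen Col10a1. In a healing fracture a soft cartilage callus is laid down first and is then replaced by bone, which is why these genes mark a stage of repair.

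On each array the sample carried the dye Cy5 and a reference RNA pooled from 11 mouse cell lines carried Cy3. The log2 ratio given below is Cy5 over Cy3 as deposited, with the dye normalization of the scanner software, so 0 means as bright as the reference. A signal is called above background where the software flagged Cy5 as well above it. A probe entered a limma test if 3 or more of the arrays in that comparison had it above background. A dim probe can thus enter through the group where it is high, so a direction or median shared by the members can be set in part by this filter. It was called at a fold change of at least 2 with an unadjusted p of at most 0.01. Benjamini-Hochberg adjusted p-values cover all probes tested. The number of probes above background was 12869 to 18300 in G-Sham, 14813 to 21461 in FLT-Sham, 14309 to 20697 in G-Surgery and 12493 to 14260 in FLT-Surgery, and FLT-Sham replicate 8 had the 14813. The signals of these RNAs were weak before dye scaling, since Cy5 was multiplied by linear factors of 19.8 to 59.5. Precision is limited by how many arrays there are, and in whole tissue fewer cells of a type and less RNA per cell cannot be told apart.

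The RefSeq promoter table used here, on build GRCm38.p6, held 6 of the 10 genes, which were Acan, Col10a1, Col9a1, Matn1, Hapln1 and Ihh. The 250 bases upstream of the start are shown for Acan, the member seen on the most arrays, and for Col10a1, the marker of enlarged chondrocytes, which was above background on none. Both lie on the plus strand, Acan at chr7:79052976-79053225 and Col10a1 at chr10:34389731-34389980. Capitals mark matches on either strand to 1 of 3 motifs. A GC box was searched as GGGCGG and no other letters. A TATA box was searched as TATAAA in the same way. A SOX core was searched as ACAAAG on both strands. The other form of the SOX core that was counted was AACAAT on both strands.
Acan: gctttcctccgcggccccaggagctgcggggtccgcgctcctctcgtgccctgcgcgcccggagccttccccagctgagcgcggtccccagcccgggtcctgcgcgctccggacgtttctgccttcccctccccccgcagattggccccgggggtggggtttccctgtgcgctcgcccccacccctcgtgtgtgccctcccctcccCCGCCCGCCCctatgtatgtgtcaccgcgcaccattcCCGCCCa
Col10a1: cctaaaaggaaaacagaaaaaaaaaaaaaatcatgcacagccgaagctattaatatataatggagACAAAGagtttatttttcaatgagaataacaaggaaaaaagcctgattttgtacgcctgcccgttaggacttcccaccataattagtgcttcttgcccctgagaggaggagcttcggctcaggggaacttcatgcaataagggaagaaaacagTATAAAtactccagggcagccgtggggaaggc
The Acan window held 3 GC boxes, all on the minus strand, starting 44, 40 and 7 bases before the start, of which the first 2 overlap. It held no TATA box and no SOX core, and 74.4% of its bases were G or C. The Col10a1 window held a TATA box starting 32 bases before the start, a SOX core starting 185 bases before it and no GC box, and 41.6% of its bases were G or C. Among all 32851 windows of this length 32.7% held a GC box, 12.4% a TATA box and 24% a SOX core, and the median G and C content was 52.4%. Of the other 4 genes, Ihh had 2 GC boxes and Matn1 had 1, and the windows of Col9a1 and Hapln1 held none of these letters. A match is a stretch of letters and was not tested as a binding site.

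Of the 10 cartilage genes, 5 had a probe above background on at least 1 array. Of the 12 probes 6 were above background on no array, a share near the 42.7% of all probes on the array. The 5 genes with no probe above background were Sox9, Col10a1, Matn1, Hapln1 and Ihh. The defining regulator of chondrocytes and the markers of their enlarged form were thus not well above background on any of the 15 arrays, while some of the matrix genes were. Acan was above background on 12 arrays, Comp on 11, Col2a1 on 8, Prg4 by probe A_55_P2023637 on 7 and by probe A_55_P2185860 on 2, and Col9a1 by probe A_55_P2005269 on 3. No array lacked all of them. The number of member probes above background on an array was 1 to 3 in G-Sham, 2 to 4 in FLT-Sham, 3 to 5 in G-Surgery and 1 to 2 in FLT-Surgery.

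**Figure D1:**
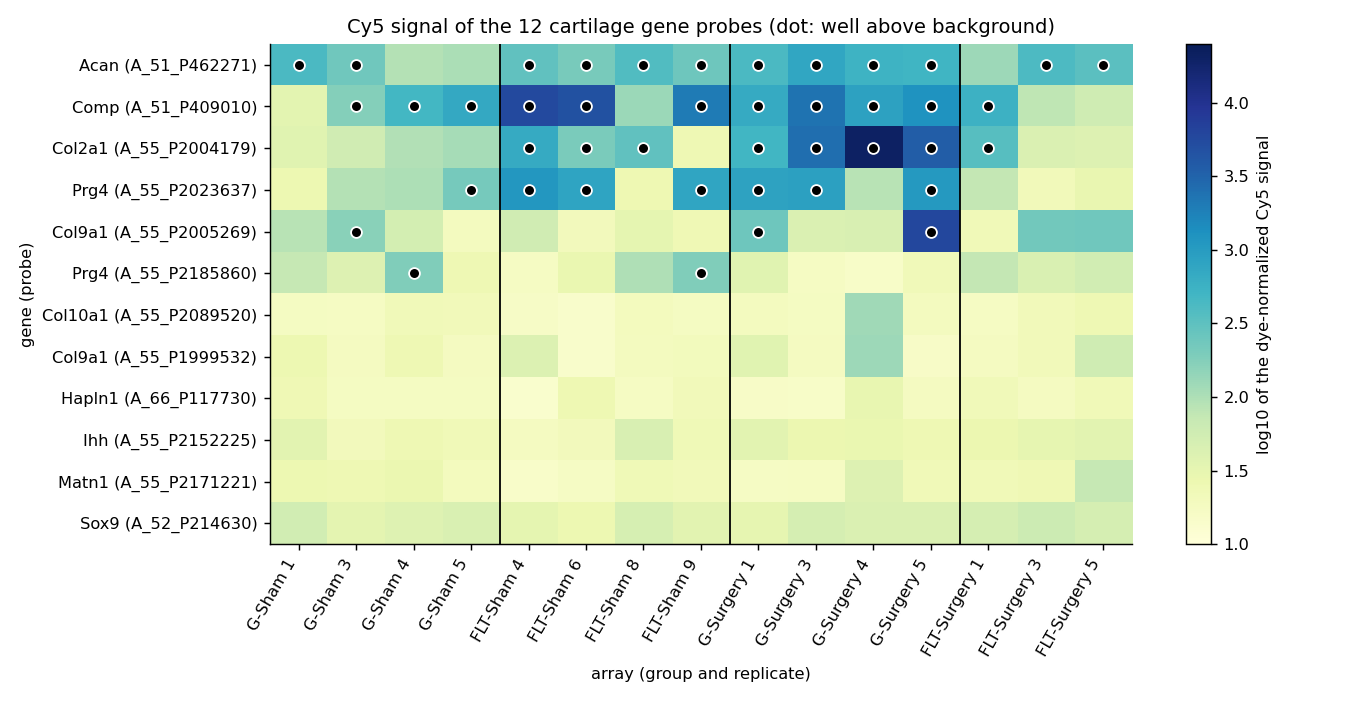
Dye-normalized Cy5 signal of the 12 cartilage gene probes (rows) on the 15 arrays (columns, by group and replicate), on a log10 colour scale, with a dot where the signal was well above background. The dots fall on 6 probes, and the darkest cell is Col2a1 in G-Surgery replicate 4, at a signal of 20421.

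Sox9 was the clearest case of a gene present in the reference and not measured in the femur. Its Cy3 signal was above background on all 15 arrays, between 374 and 768, while its Cy5 signal lay between 26.0 and 62.1 and was above background on none. The log2 ratio of Sox9 was therefore between -4.46 and -3.09 on every array, and this is a bound set by the background, with no order among the groups. Ihh, the hedgehog ligand of the growth plate, had Cy5 signals of 18.0 to 45.3, and Hapln1 of at most 30.7. Matn1 reached 71.1 in FLT-Surgery replicate 5. Col10a1 had a Cy5 signal of 120 in G-Surgery replicate 4 and of at most 24.5 on every other array. On that array Col10a1 was positive and significant by the software's lower criterion, but not well above background.

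Col2a1, the collagen of the cartilage fibre, was high in the ground mice with a bone defect. Its log2 ratio was 1.98, 4.65, 8.06 and 5.21 in G-Surgery replicates 1, 3, 4 and 5. In G-Sham it was -2.64, -1.40, -0.39 and 0.22 in replicates 1, 3, 4 and 5. All 4 G-Surgery arrays lay above all 4 G-Sham arrays, and Col2a1 was above background on 4 of 4 G-Surgery and 0 of 4 G-Sham arrays. The Cy5 signals behind the G-Surgery ratios were 497, 2597, 20421 and 3592, so the animals of that group differed widely among themselves. In FLT-Surgery the log2 ratio was 1.76 in replicate 1, where Col2a1 was above background, and -2.14 and -2.46 in replicates 3 and 5, where it was not. In FLT-Sham it was 2.66, 0.64 and 1.06 in replicates 4, 6 and 8, all above background, and -3.19 in replicate 9. The FLT-Sham arrays thus reached from below the lowest to above the highest G-Sham array.

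Acan, the aggrecan core protein, varied less. The log2 ratio was 2.33, 1.69, 0.47 and 0.89 in G-Sham replicates 1, 3, 4 and 5, and 2.42, 3.63, 2.76 and 2.41 in G-Surgery replicates 1, 3, 4 and 5. In FLT-Sham replicates 4, 6, 8 and 9 it was 1.89, 1.43, 2.24 and 1.40, and in FLT-Surgery replicates 1, 3 and 5 it was 0.74, 1.98 and 1.47. By the deposited ratio the 4 G-Surgery arrays were the highest of all 15, and the other 3 groups overlapped. After a further loess, an intensity-dependent dye correction on top of the deposited one, this order was lost. G-Sham replicate 1 was then highest, at 5.13, and the G-Surgery arrays lay between 2.84 and 4.76. Acan was above background on 2 of 4 G-Sham, 4 of 4 FLT-Sham, 4 of 4 G-Surgery and 2 of 3 FLT-Surgery arrays.

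Comp, a matrix protein of cartilage and tendon, spread widely within the groups. Its log2 ratio was -2.27, 1.10, 2.41 and 4.47 in G-Sham replicates 1, 3, 4 and 5 and 6.55, 6.39, 0.36 and 5.07 in FLT-Sham replicates 4, 6, 8 and 9. It was 3.14, 5.32, 3.55 and 4.47 in G-Surgery replicates 1, 3, 4 and 5, and 3.36, -0.56 and -0.96 in FLT-Surgery replicates 1, 3 and 5. FLT-Sham replicate 8 stood far below its group, and FLT-Surgery replicate 1 stood above the other arrays of its own group and within the range of G-Surgery. Comp was above background on 3 of 4 G-Sham, 3 of 4 FLT-Sham, 4 of 4 G-Surgery and 1 of 3 FLT-Surgery arrays.

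Prg4, the lubricin gene, was low on the same arrays as Comp by probe A_55_P2023637. Its log2 ratio was 0.00, 2.03, 2.71 and 4.04 in G-Sham replicates 1, 3, 4 and 5 and 6.12, 6.55, 0.58 and 5.72 in FLT-Sham replicates 4, 6, 8 and 9. It was 5.55, 6.38, 2.75 and 6.82 in G-Surgery replicates 1, 3, 4 and 5 and 2.36, 0.00 and 0.00 in FLT-Surgery replicates 1, 3 and 5. The FLT-Surgery arrays all lay below the G-Surgery arrays, with the highest of the former at 2.36 and the lowest of the latter at 2.75. The 7 arrays on which this probe was above background were all among the 11 on which Comp was. The reference channel of this probe was above background on no array, so its ratios divide by a signal at the noise level and the software set a ratio of 0 where neither channel was significant.

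**Figure D2:**
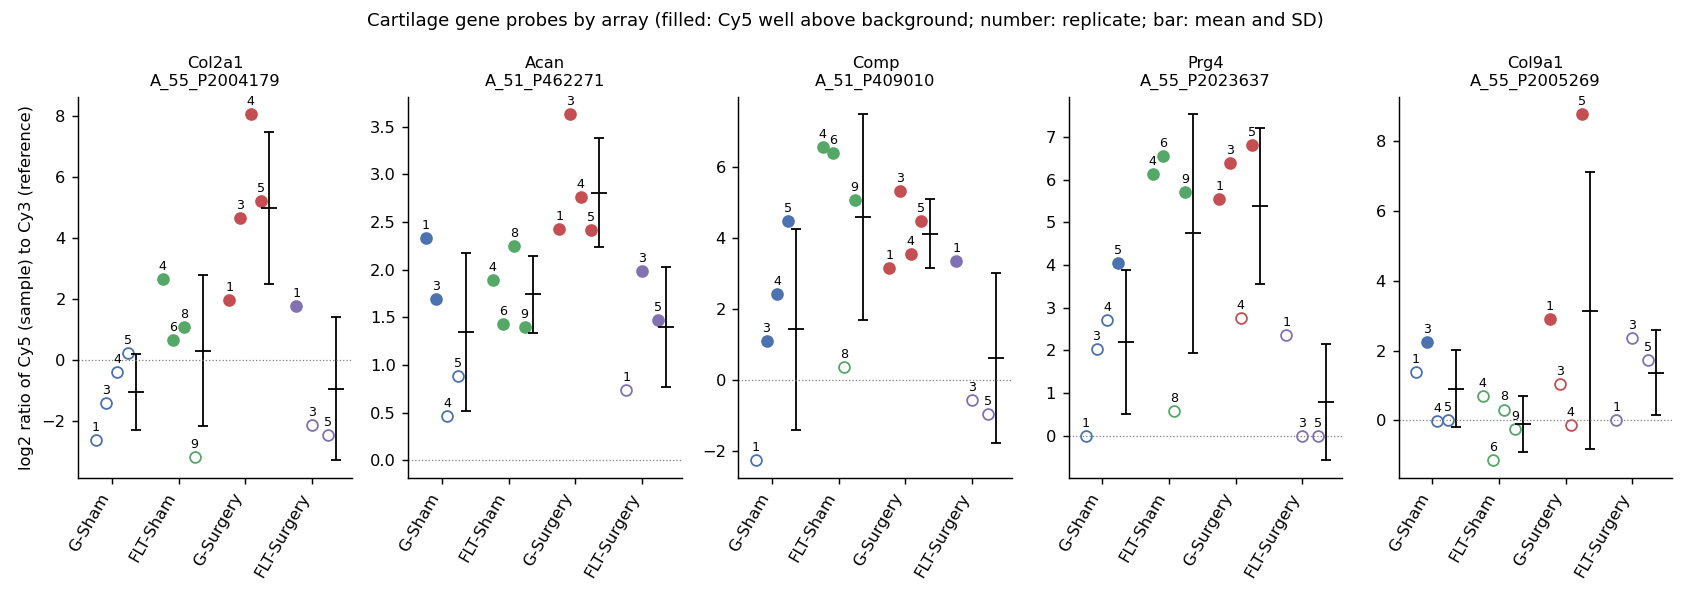
Deposited log2 ratio of Cy5 to Cy3 for the 5 probes above background on at least 3 arrays, by group, with 1 point per array, filled where Cy5 was well above background and numbered by replicate, and the mean and SD of each group beside the points. All G-Surgery points of Col2a1 and Acan lie above all G-Sham points, while Comp and Prg4 overlap between those groups.

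Where a gene had 2 probes, their log2 ratios differed. The dimmer probe was above background on 2 arrays for Prg4 and on 0 for Col9a1, so most of these contrasts set a signal against background. Both Prg4 probes were above background together on 1 array, and A_55_P2185860 had its highest log2 ratio, 3.67, in G-Sham replicate 4 and was -0.34 in FLT-Sham replicate 4, where the other probe was at 6.12. The group mean of A_55_P2185860 was 1.63 in G-Sham and lower in FLT-Sham (0.92) and G-Surgery (0.42), where the other probe was higher than in G-Sham. For Col9a1, the fibre-coating collagen, A_55_P2005269 stood at 8.78 in G-Surgery replicate 5 with a Cy5 signal of 5897. On the same array A_55_P1999532 was at 0.00, a ratio set by the software because neither channel was significant. In G-Surgery replicate 4 the order was turned, with -0.14 by the former and 3.53 by the latter, the latter not well above background. By A_55_P2005269 the log2 ratio of the other arrays was -1.15 to 2.90, so the group mean of G-Surgery rests on replicate 5, without which the probe was above background on too few arrays to be tested against G-Sham. Which part of the transcript each probe covers is not given in the sources used here.

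**Figure D3:**
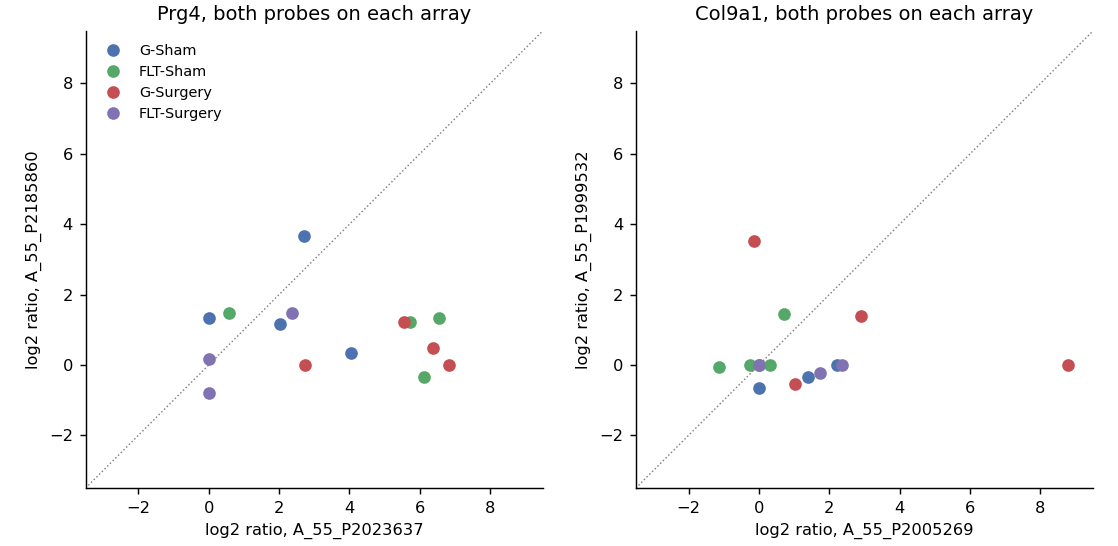
Log2 ratio on each of the 15 arrays by the 2 probes of Prg4 (left) and of Col9a1 (right), coloured by group, with a dotted line where both would be equal. The points do not follow the line, but A_55_P2185860 was well above background on 2 arrays and A_55_P1999532 on 0, and ratios of exactly 0 were set by the software. The Col9a1 point at 8.78 on the horizontal axis is G-Surgery replicate 5.

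The first comparison asks how the bone defect changed cartilage genes in mice kept on the ground. Col2a1 was higher in G-Surgery than in G-Sham by 6.03 on the log2 scale (SE 1.18, n = 4 and 4, limma adjusted p = 0.201), and it was the only 1 of the 5 member probes tested that was called, beside 2.08% of all probes tested called higher and 0.509% called lower. In the Cy5 channel, where G-Sham was below background on 4 of 4 arrays and G-Surgery above it on 4 of 4, Col2a1 was at least 31.2-fold higher in G-Surgery (adjusted p of the limma fit 0.201). After normexp background correction with a loess in place of the deposited normalization, called normexp below, the log2 difference was 2.64. That is a fold below this bound, and it was still called. Such bounds set the group's mean signal against the lowest signal well above background, after the channels were scaled to one average distribution. They hold for the group means under that scaling alone and take no account of the spread between arrays. They could also carry a bias of the dyes, which were not swapped. The other probes tested were higher without passing the cut-off. Prg4 by A_55_P2023637 was at 3.18 (SE 1.06, limma adjusted p = 0.363) and Comp at 2.69 (SE 1.27, adjusted p = 0.483). Col9a1 by A_55_P2005269 was at 2.24 (SE 1.73, adjusted p = 0.637). Acan was at 1.46 (SE 0.47, adjusted p = 0.358), or 0.99 after a further loess. The second Prg4 probe was too dim to be tested. The median over the 5 probes was 2.69, beside 0.14 over all 17675 probes tested. By the deposited ratio, arrays of the 2 groups did not overlap for Col2a1 and Acan, beside 5.31% of all probes tested that were higher without overlap. After a further loess those of Acan overlapped.

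The arrays lay on 3 slides, of which slide 3 held G-Sham replicate 4 alone. Within slides the Col2a1 difference was 6.48 on slide 1 (3 against 1 array) and 5.86 on slide 2 (1 against 2 arrays). It was 5.0 to 7.03 with any 1 array left out, and was called each time. Without G-Sham replicate 5, Comp (3.70) and Prg4 (3.80) were called too, without G-Sham replicate 1 so was Acan (1.79), and without G-Surgery replicate 4 so was Prg4 (4.06). Comp and Prg4 are also genes of tendon and synovium, and of 7 tested genes of a list of 10 tendon and synovial fibroblast markers 6 were higher in G-Surgery. The 9 with a probe had a summed Cy5 signal, in multiples of the array's 75th percentile, of 27.5 to 196 in G-Sham and 69.5 to 234 in G-Surgery. Their Col14a1 was called, and its signal was at least 8.83-fold higher in G-Surgery (limma adjusted p = 0.176), since it was above background on 0 of 4 G-Sham arrays. The part of such tissue in the result was not tested.

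The second comparison asks how spaceflight changed these genes in mice with a defect. All 4 member probes tested were lower in FLT-Surgery than in G-Surgery, and 2 of them were called, beside 2.09% of all probes tested called lower and 1.05% called higher. Each of the 4 was above background on more G-Surgery than FLT-Surgery arrays, so the filter favoured this direction. Col2a1 fell by 5.92 on the log2 scale (SE 1.53, n = 3 and 4, limma adjusted p = 0.280) and Prg4 by A_55_P2023637 fell by 4.59 (SE 1.05, limma adjusted p = 0.258). Prg4 was above background on 3 of 4 G-Surgery and 0 of 3 FLT-Surgery arrays, and its Cy5 signal was at least 4.72-fold higher in G-Surgery (adjusted p 0.258). Comp, at -3.5 (SE 1.07, limma adjusted p = 0.280), and Acan, at -1.41 (SE 0.43, limma adjusted p = 0.280), did not pass the cut-off. With the slide as a block Comp did, at -3.74 (limma adjusted p = 0.0738), as it did with Cy5 alone (-2.82). Comp also did with array weights (-4.35, limma adjusted p = 0.0354), a setting that called 2024 of the 16548 probes tested. With all 15 arrays in the fit Acan did, at the same -1.41. Acan shrank to -0.58 after a further loess, -0.48 after normexp and -0.85 with Cy5 alone, none of which passed the cut-off. The median over the 4 probes, all of which passed the filter by G-Surgery arrays alone and none by FLT-Surgery arrays alone, was -4.05, beside -0.20 over all 16548 probes tested. By the deposited ratio the arrays of Col2a1, Prg4 and Acan did not overlap, beside 7.54% of all probes tested that were lower without overlap. After a further loess those of Col2a1 and Acan overlapped. No probe on the array had an adjusted p of at most 0.05 in this comparison, where 2707, or 16.4%, had an unadjusted p of at most 0.05.

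Both calls depended on single animals. Col2a1 no longer passed the cut-off without FLT-Surgery replicate 3 (-5.32), FLT-Surgery replicate 5 (-5.17), G-Surgery replicate 3 (-6.03) or G-Surgery replicate 5 (-5.84). Prg4 did not pass without FLT-Surgery replicate 3 or replicate 5 (-4.19 each) and was not tested without G-Surgery replicate 1, 3 or 5, since fewer than 3 arrays were then above background. Conversely Comp was called at -4.88 without FLT-Surgery replicate 1 (adjusted p of the limma fit 0.0133), where 2052 of 16110 probes tested were called. Acan was called at -1.70 without FLT-Surgery replicate 3. After normexp with its loess, which changed background correction and normalization together, Col2a1 was at -2.53 and Prg4 at -0.96, the latter a fold below the bound given above. After a further loess on top of the deposited dye correction Col2a1 was at -5.45. None of these passed the cut-off. Within slide 1 (2 against 3 arrays) the differences were -7.38 for Col2a1, -5.04 for Prg4, -4.48 for Comp and -0.80 for Acan. Within slide 2 (1 against 1 array) they were -2.89, -4.02, -1.96 and -2.90 in the same order.

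**Figure D4:**
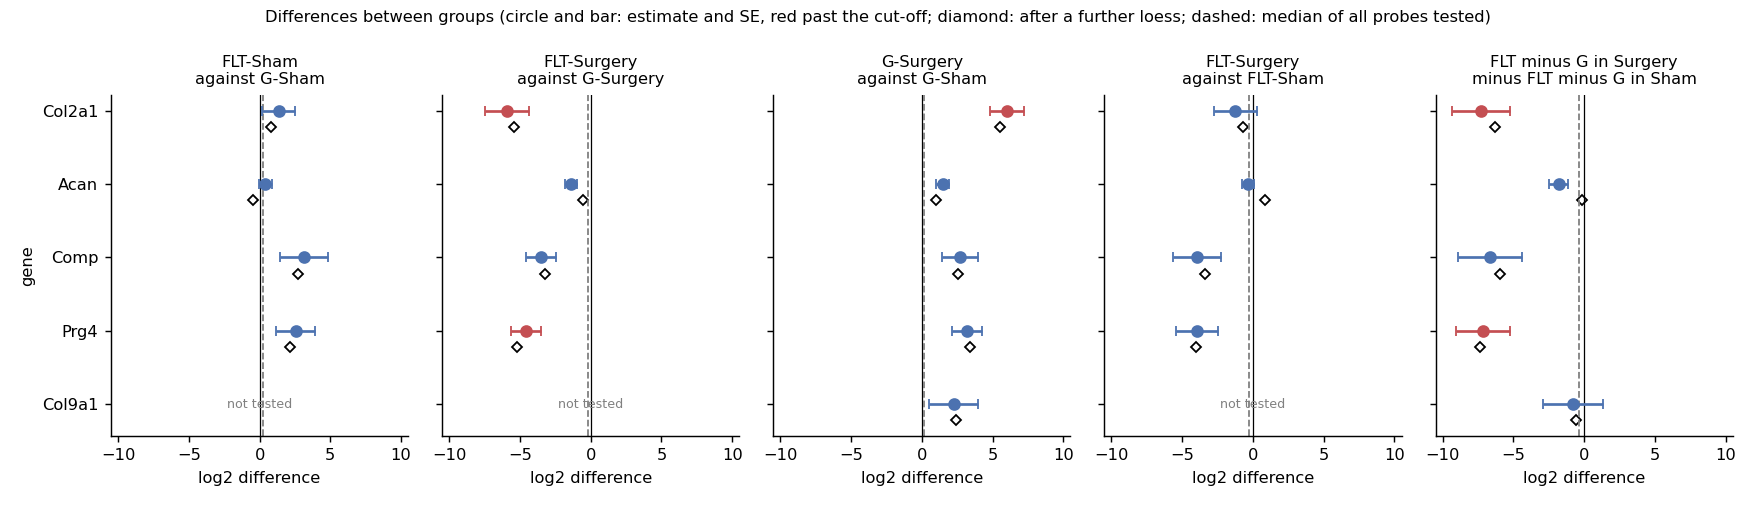
Log2 difference between groups for 5 probes in the 4 comparisons and in the difference between the spaceflight effects, as estimate and SE of the limma fit, red where past the cut-off, with diamonds for the estimate after a further loess and a dashed line at the median of all probes tested. Col2a1 stands at 6.03 in G-Surgery against G-Sham and at -5.92 in FLT-Surgery against G-Surgery, and Acan changes sign after the further loess in FLT-Sham against G-Sham and in FLT-Surgery against FLT-Sham.

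The arrays with the least Comp and Prg4 were also low in markers of skeletal muscle and tendon. Of 12 muscle markers, 11 were tested between FLT-Surgery and G-Surgery and 11 were lower, with Myh2 called at -5.48. The summed Cy5 signal of the 12, in multiples of the array's 75th percentile, was 896 and 993 in FLT-Surgery replicates 3 and 5 and 8624 in replicate 1, against 1750 to 8939 in G-Surgery. In the Sham groups it was 4335 in FLT-Sham replicate 8 against 14943 to 25641 in the other arrays of its group, and 3093 to 18603 in G-Sham. All 7 tested tendon and synovial fibroblast markers were lower in FLT-Surgery than in G-Surgery, and none was called. The mean log2 ratio of the 9 was 2.0, 0.11 and -1.34 in FLT-Surgery replicates 1, 3 and 5 and 1.21 to 2.87 in G-Surgery. It was 0.77 in FLT-Sham replicate 8 and 2.48 to 3.73 in the rest of FLT-Sham. The tendon marker Tnmd was above background on 1 of the 15 arrays, while Scx was above it on 12 and Dcn on 15. Col2a1 was also lowest of its group in G-Sham replicate 1 and in G-Surgery replicate 1, whose muscle sums, 3093 and 1750, were the lowest of theirs, and was low in FLT-Surgery replicates 3 and 5. In FLT-Sham it was lowest in replicate 9, at a muscle sum of 14943. The arrays low in Comp also needed strong dye scaling. The Cy5 factor was 59.5 and 50.9 in FLT-Surgery replicates 3 and 5 against 27.5 in replicate 1, and 41.1 in FLT-Sham replicate 8 against at most 27.8 in its group. G-Sham replicate 1 had the highest factor of its group too, the others being at 20.8 to 25.6. In G-Surgery it was 24.8 to 48.0, highest in replicate 4. How much these tissues or the weak signal took part in the values of Comp, Prg4 and Col2a1 was not tested.

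**Figure D5:**
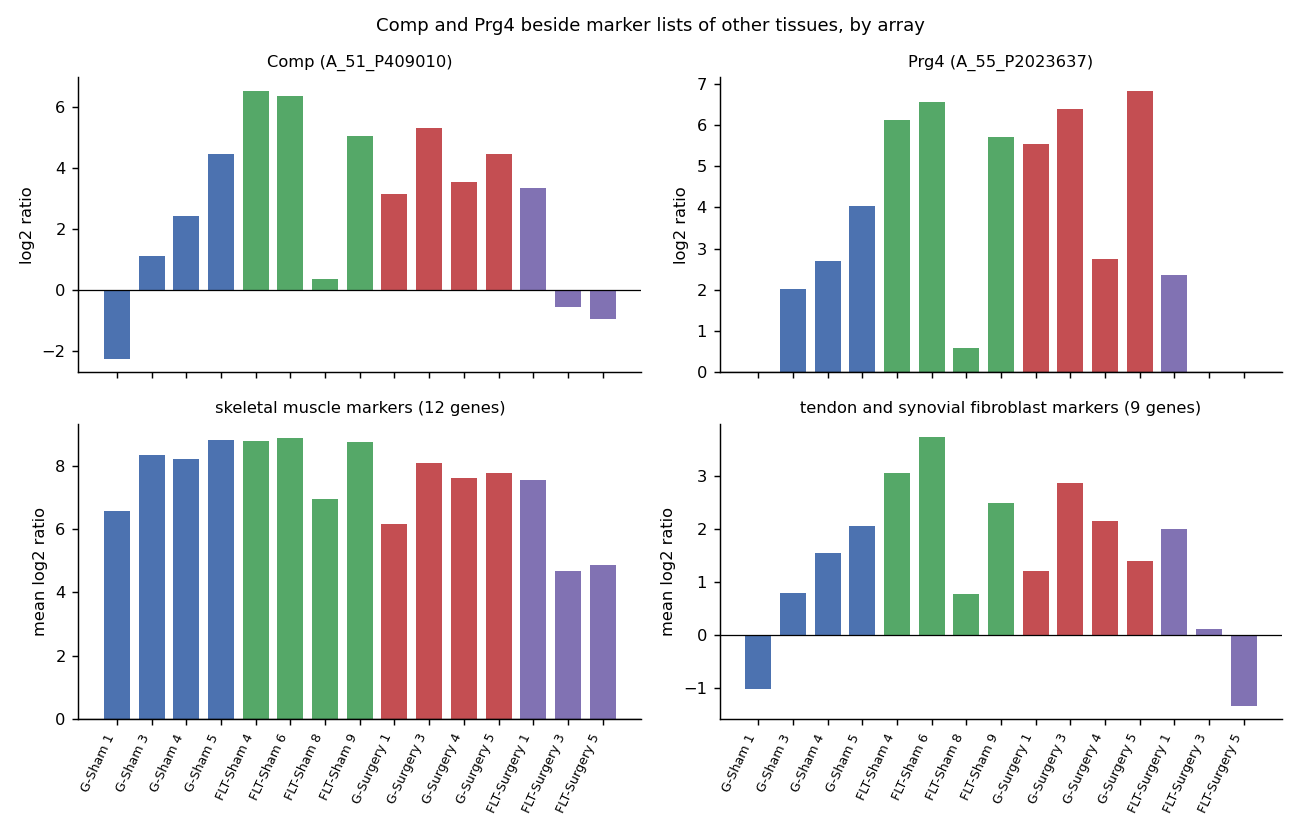
Log2 ratio of Comp and of Prg4 (top), and mean log2 ratio of 12 skeletal muscle and 9 tendon and synovial fibroblast markers (bottom), as bars for each of the 15 arrays, coloured by group. The 4 arrays lowest in Comp, which are G-Sham replicate 1, FLT-Sham replicate 8 and FLT-Surgery replicates 3 and 5, are also the 4 lowest in Prg4 and in the tendon mean and are among the 5 lowest in the muscle mean.

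The third comparison asks for the effect of spaceflight without a defect. All 4 member probes tested were higher in FLT-Sham than in G-Sham and 0 were called, beside 1.79% of all probes tested called higher and 0.208% called lower. The differences were 3.16 for Comp (SE 1.70, n = 4 and 4, limma adjusted p = 0.522), 2.55 for Prg4 by A_55_P2023637 (SE 1.38, adjusted p = 0.522), 1.35 for Col2a1 (SE 1.18, adjusted p = 0.584) and 0.40 for Acan (SE 0.46, adjusted p = 0.661). The groups overlapped for all 4, beside 3.64% of all probes tested that were higher without overlap, and Acan turned to -0.44 after a further loess of the signals. The median over the 4 was 1.95, beside 0.24 over all 19739 probes tested. Col2a1 was above background on 3 of 4 FLT-Sham and 0 of 4 G-Sham arrays, with a mean Cy5 signal at least 1.65-fold higher in FLT-Sham (adjusted p of the limma fit 0.584). That value bounds the means only, since FLT-Sham replicate 9 lay below every G-Sham array. The log2 difference of Col2a1 was 0.30 after normexp. Without FLT-Sham replicate 8, Prg4 was called at 3.94 (limma adjusted p = 0.0537) and the number of called probes rose from 394 to 2071 over the whole array. Without G-Sham replicate 1 the Comp difference was 1.93 and that of Col2a1 0.82, and without FLT-Sham replicate 9 that of Col2a1 was 2.51, none of them called. With array weights Comp (4.19, limma adjusted p = 0.0213) and Prg4 (3.59, adjusted p = 0.0152) were called, in a setting that called 4690 of the 19739 probes tested. All 7 tested tendon and synovial fibroblast markers were higher in FLT-Sham too, with 0 called and a median of 1.98, and their part in the result was not tested. Within slides the Comp difference was 5.45 on slide 1 (1 against 1 array) and 2.84 on slide 2 (3 against 2 arrays), and that of Prg4 was 4.09 and 2.26. Of all probes tested none had an adjusted p of at most 0.05 in the limma fit, where 1890, or 9.57%, had an unadjusted p of at most 0.05.

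The fourth comparison sets mice with a defect against those without in flight. All 4 member probes tested were lower in FLT-Surgery than in FLT-Sham and 0 were called, beside 6.22% of all probes tested called lower and 0.423% called higher. The groups overlapped for all 4, beside 10.6% of all probes tested that were lower without overlap. Comp was at -3.98 (SE 1.69, n = 3 and 4, limma adjusted p = 0.202) and Prg4 at -3.95 (SE 1.46, limma adjusted p = 0.175). Prg4 was above background on 3 of 4 FLT-Sham and 0 of 3 FLT-Surgery arrays, at least 3.41-fold higher in FLT-Sham (adjusted p 0.175). Col2a1, at -1.24, and Acan, at -0.34, differed by less than their SEs of 1.52 and 0.43. Col2a1 was -4.97 on slide 1 and 2.25 on slide 2, and Acan turned to 0.86 after a further loess. Without FLT-Sham replicate 8 both Comp (-5.39, limma adjusted p = 0.0165) and Prg4 (-5.34, adjusted p = 0.00346) were called. With 1 array left out Col2a1 lay between -2.60 and -0.45. With array weights Comp was called at -6.48 (limma adjusted p = 0.000766) and Prg4 at -5.89 (adjusted p = 0.000632), in a setting that called 9285 of the 19136 probes tested. All 7 tested tendon and synovial fibroblast markers were lower in FLT-Surgery too, with a median of -2.48 and Scx called, as were 11 of 12 tested muscle markers, and their part in the result was not tested. The median over the 4 was -2.60, beside -0.28 over all 19136 probes tested.

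The effect of spaceflight itself was compared between mice with and without a defect, as the difference of the 2 differences in 1 fit over 15 arrays. It was -7.27 for Col2a1 (SE 2.06, limma adjusted p = 0.171) and -7.14 for Prg4 (SE 1.92, limma adjusted p = 0.171), and both were called, beside 4.97% of all probes tested called lower and 0.358% called higher. Comp was at -6.67 (SE 2.25, limma adjusted p = 0.188), Acan at -1.81, or -0.14 after a further loess, and Col9a1 by A_55_P2005269 at -0.78. These values share their groups with the comparisons above. Col2a1 was above background on 0 of 4 G-Sham and 1 of 3 FLT-Surgery arrays, and Prg4 by A_55_P2023637 on 1 of 4 and 0 of 3. The reference signal of that Prg4 probe was above background on no array. Both sizes thus rest in part on signals at the noise level and are not exact. After normexp with its loess both were smaller, at -2.83 for Col2a1 and -1.80 for Prg4, and both were called. The call of Col2a1 was lost after a further loess (-6.27) and without FLT-Surgery replicate 3 (-6.67) or replicate 5 (-6.51). Comp was called with array weights (-8.50), a setting that called 6378 of the 21777 probes tested, and with Cy5 alone (-5.26) or normexp (-3.05). It was also called without FLT-Sham replicate 8 (-8.08), FLT-Surgery replicate 1 (-8.04) or G-Sham replicate 5 (-7.68), and Acan without G-Sham replicate 1 (-2.14). Over all 21777 probes the median was -0.37.

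Other genes of the cartilage matrix gave 1 call in each of the 4 comparisons. Of a list of 20, 3 were above background on all 15 arrays, namely Matn4, Hapln3 and Papss2, and 7 on none, among them Col9a3, Matn3 and Cnmd. Matn4, a matrilin of several connective tissues, had log2 ratios of 2.20 to 5.4 in G-Surgery, 2.47 to 3.04 in FLT-Sham and 0.75 to 1.74 in G-Sham. It was called higher in G-Surgery than in G-Sham by 2.71 (SE 0.63, limma adjusted p = 0.264) and in FLT-Sham than in G-Sham by 1.37 (SE 0.34, adjusted p = 0.410), the latter 0.78 after a further loess. Mia, a protein secreted by chondrocytes, was above background on 3 of 4 G-Surgery and 0 of 3 FLT-Surgery arrays, with a signal in the former at least 2.13-fold that in the latter (adjusted p = 0.280), and its log2 difference moved from -1.46 to -0.93 after a further loess. Chad, a matrix protein that binds collagen, fell by 2.36 from FLT-Sham to FLT-Surgery (SE 0.51, adjusted p = 0.135), or -1.49 after a further loess. The median of the tested probes of the list was 1.14 in G-Surgery against G-Sham (7 tested, 1 called higher beside 2.08% of all probes), -0.89 in FLT-Surgery against G-Surgery (7 tested, 1 called lower beside 2.09%), 1.04 in FLT-Sham against G-Sham (10 tested, 1 called higher beside 1.79%) and -0.74 in FLT-Surgery against FLT-Sham (8 tested, 1 called lower beside 6.22%), with the medians over all probes given above.

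Among 10 regulators of chondrocytes, Sox6, the partner of Sox9 and Sox5, was above background on no array, as were Foxa2 and Foxa3. Sox5 was above background on all 15, and it rose from G-Surgery to FLT-Surgery by 1.45 (SE 0.25, limma adjusted p = 0.208), with log2 ratios of 6.4 to 6.68 in FLT-Surgery and 4.85 to 5.32 in G-Surgery. Trps1, a repressor in growth plate chondrocytes, was higher in G-Surgery than in G-Sham by 2.40 by probe A_66_P120603 (SE 0.60, adjusted p = 0.295), and fell by 2.99 in FLT-Surgery against G-Surgery (SE 0.85, adjusted p = 0.280). The second Trps1 probe fell by 1.48 in the latter, or -0.69 after a further loess. Of the 10 genes, 5 probes were tested in FLT-Surgery against G-Surgery with 1 called higher and 2 called lower, beside 1.05% and 2.09% of all probes tested, and 6 in G-Surgery against G-Sham with 1 called higher, beside 2.08%.

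The hedgehog and parathyroid hormone-related peptide pathway sets the pace of the growth plate. A list of 14 genes held it together with Fgfr3, Fgf18, Gdf5 and Bmpr1b, which belong to other growth factor pathways. This list gave 0 calls in FLT-Sham against G-Sham over 8 probes tested and 0 in G-Surgery against G-Sham over 7. Ptch1, a hedgehog receptor, and Gli2, a hedgehog effector, were above background on no array. In FLT-Surgery against G-Surgery 2 of 6 probes were called lower, beside 2.09% of all probes tested. They were those of Fgfr3 and Fgf18, and no hedgehog or parathyroid hormone-related peptide gene was called there. Fgfr3, a brake on chondrocyte division, was above background on 3 of 4 G-Surgery and 0 of 3 FLT-Surgery arrays, with a signal in the former at least 2.4-fold that in the latter (limma adjusted p = 0.251). Its ligand Fgf18 fell by 1.56 (SE 0.41, adjusted p = 0.280), or -0.62 after a further loess. In FLT-Surgery against FLT-Sham 5 of 8 were called lower, beside 6.22% of all probes tested. Of those 5, 4 probes were above background on 0 of 3 FLT-Surgery arrays, so they entered the test through FLT-Sham alone and their size is a bound. The count thus rests mostly on probes that the filter took in where they were high. Fgfr3 was at least 5.5-fold higher in FLT-Sham (adjusted p = 0.0896) and the receptor Pth1r at least 7.98-fold higher (adjusted p = 0.136), both above background on 4 of 4 FLT-Sham arrays. The hedgehog effector Gli1 was at least 3.81-fold higher (adjusted p = 0.125) and Fgf18, by probe A_55_P1976356, at least 2.9-fold higher (adjusted p = 0.146), both on 3 of 4 FLT-Sham arrays. The other Fgf18 probe moved from -1.42 to -0.29 after a further loess. Lower in that comparison too were 11 of 12 tested muscle, 7 of 7 tendon and synovial fibroblast, 5 of 7 osteoblast and osteocyte and 4 of 7 marrow blood cell markers. The part of these tissues was not tested.

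Genes of hypertrophy and matrix breakdown are shared with bone cells. Ibsp, a sialoprotein of mineralizing matrix, was higher in FLT-Sham than in G-Sham by 4.02 and 2.35 with its 2 probes (SE 1.04 and 0.47, limma adjusted p = 0.424 and 0.346) and in G-Surgery than in G-Sham by 3.1 by the second (SE 0.75, adjusted p = 0.280). Alpl, the alkaline phosphatase of mineralizing cells, was above background on 4 of 4 FLT-Sham and 0 of 3 FLT-Surgery arrays and at least 9.01-fold higher in FLT-Sham (limma adjusted p = 0.0397). In that fit 16 of 19136 probes, or 0.0836%, had an adjusted p of at most 0.05. Of 9 genes of this list Vegfa and Spp1 were above background on all 15 arrays. Between FLT-Surgery and FLT-Sham, 3 of 7 probes tested of a list of 10 marrow blood cell markers were called lower, beside 6.22% of all probes tested, and their summed Cy5 signal was 42.9 to 155 times the array's 75th percentile in FLT-Surgery and 121 to 354 times in FLT-Sham. Both Ibsp and Alpl are also in the list of osteoblast and osteocyte markers, of which 2 of 9 probes tested were called higher in FLT-Sham against G-Sham, beside 1.79% of all probes tested, and 2 of 8 lower in FLT-Surgery against FLT-Sham, beside 6.22%. Of that list Sp7, Dmp1, Phex and Sost were above background on no array, and the part of bone and marrow cells in these values was not tested.

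Likeness in pattern was measured over 15 arrays against 9330 probes that were above background on at least 8 of them and carry a symbol. The patterns closest to Col2a1 were those of Htra1 (Pearson r = 0.833), Slc39a1 (0.813) and Gpr153 (0.809), and those closest to Acan were Bola2 (0.887), Pdpk1 (0.869) and Rpl36 (0.856). For Comp they were Mrpl33 (0.968), Psmb3 (0.960) and Srsf7 (0.955). The value of Rpl36 dropped to 0.330 after a further loess, and the other 8 stayed at 0.733 or above. These correlations describe the 15 arrays, which share their dye normalization and differ in the number of probes above background, and none of the genes is a cartilage gene of the lists used here.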

How the data were processed

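RNA of 15 femur samples, 1 array per mouse, was hybridised by the authors to 2-colour Agilent arrays against a reference in Cy3 without dye swaps. Signals were extracted with Agilent Feature Extraction 12.0 per the labels, and the deposited intensity of each channel is background-subtracted and dye-normalized, linear and then LOWESS. The deposited log10 ratio of Cy5 to Cy3 was multiplied to log2, outlier spots were left out and spots of a probe averaged. The deposited value table differed from it by less than 0.005. Where neither channel was significant the software had set the ratio to 0.

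Of 55681 non-control probes, 28020 were matched by accession to 1 symbol in RefSeq. The genes, lists and tests were chosen with earlier results of these data known. Tests used limma 3.58.1 (R 4.3.3) and took in the arrays of both groups, or all 15 arrays for the difference between the spaceflight effects. A probe was tested if Cy5 was flagged well above background on 3 or more of these arrays, and the call was a fold of at least 2 with an unadjusted p of at most 0.01. P-values measure the spread between mice. The number of arrays limits the precision.

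Named were every probe of the 10 genes, up to 6 called genes per comparison of the wider cartilage lists by size of change, and the 3 genes closest in pattern to each member above background on at least 8 arrays. A gene of a list was represented by its probe of highest mean signal. Col14a1, Myh2 and Scx, the only called markers of their lists in the comparisons named, were chosen after their values were seen. Alternatives changed the normalization, centring, channel, filters, samples in the fit, slide block, array weights, outlier spots, value table, replicate block and arrays left out. The normexp alternative changed background correction (normexp with offset 50, on median signals) and normalization (a loess) together. Replacing ratios of 0 by the ratio of processed signals was chosen after seeing the data. The fits were tested on simulated data, with 200 probes changed by 2 on the log2 scale. By comparison, they recovered 62.5% to 78.5% of these and also called 161 to 223 unchanged probes.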

Additional observations from a re-analysis of the deposited data

Results flagged for a closer look

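In FLT-Sham replicate 8 the log2 ratio of Prg4, by probe A_55_P2023637, was 0.58, against 5.72 to 6.55 in the other arrays of that group, a gap that passed Dixon's 95% criterion for 4 arrays. Of 15 combinations of group and probe tested in this way it was the only 1 that passed, and chance gives about 1 in 20, or 0.75 here. That array also had the fewest probes above background of its group.

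The spaceflight effect differed between mice with and without a bone defect by -7.27 for Col2a1 (limma adjusted p = 0.171) and by -7.14 for Prg4 (limma adjusted p = 0.171), both past the cut-off on the unadjusted p in the fit over 15 arrays. Over the alternatives the adjusted p of the limma fit lay between 0.00866 and 0.385 for Col2a1 and between 0.00332 and 0.385 for Prg4. Both sizes are inexact, since Col2a1 was above background on 0 of 4 G-Sham arrays and Prg4 on 0 of 3 FLT-Surgery arrays.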

How the results depend on the processing

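Of the members, Col2a1 in G-Surgery against G-Sham was called under every alternative that tested it, at 2.64 after normexp and at 5.0 to 7.03 otherwise. Requiring both channels above background on every array left no member probe to test, so that 0 were called in each comparison. In FLT-Surgery against G-Surgery, 2 members were called, against 1 after a further loess, 0 after normexp with its loess, 1 without a filter on dim probes and 1 with a replicate block. The count was 3 with Cy5 alone, all 15 arrays, the slide as a block or array weights. In G-Surgery against G-Sham, 1 was called, against 2 with all 15 arrays and 2 with array weights. Array weights gave 2 instead of 0 both in FLT-Sham against G-Sham and in FLT-Surgery against FLT-Sham, and a further loess gave 1 instead of 2 for the difference between the spaceflight effects. With 1 array left out the counts were 0 to 1 in FLT-Sham against G-Sham, 0 to 3 in FLT-Surgery against G-Surgery, 1 to 3 in G-Surgery against G-Sham, 0 to 2 in FLT-Surgery against FLT-Sham and 1 to 3 for the difference between effects. The sign turned for Acan in FLT-Sham against G-Sham (-0.44 after a further loess) and in FLT-Surgery against FLT-Sham (0.86 after a further loess, 0.43 with Cy5 alone, 0.053 with array weights), and for Col9a1 in the difference between effects (0.62 with Cy5 alone, 0.41 with array weights). The cause was not tested.

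Over all probes the balance of calls moved under some of the settings. It moved little with median centring, where 86.4% were called higher in FLT-Sham against G-Sham and 38.4% in FLT-Surgery against G-Surgery. With the deposited ratios the share called higher was 89.6%, 33.3%, 80.3%, 6.37% and 6.72% in FLT-Sham against G-Sham, FLT-Surgery against G-Surgery, G-Surgery against G-Sham, FLT-Surgery against FLT-Sham and the difference between effects. In the same order it was 65.2%, 94.8%, 56.9%, 51.7% and 74% after a further loess, 30.3%, 82.7%, 40%, 33.1% and 53.9% after normexp, and 75.1%, 74.9%, 57.9%, 21.4% and 30.6% with Cy5 alone. The further loess moved the median of all probes from 0.24 to -0.13, -0.20 to 0.29, 0.14 to -0.08, -0.28 to 0.35 and -0.37 to 0.49. The number of probes called was 394, 519, 458, 1272 and 1160, against 33, 208, 180, 293 and 321 after normexp, 4690, 2024, 692, 9285 and 6378 with array weights, and 227, 1290, 210, 550 and 804 with the slide as a block. A further loess gave 247 in the first and 1190 in the second, all 15 arrays 597 in the first and 2593 in the fourth, and no filter 683 in the first.

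The replicate numbers do not pair the mice. Deviations of same-numbered arrays correlated at -0.38, -0.20 and 0.23 between the Surgery groups and at 0.38, -0.01, -0.07 and -0.16 between the G groups. With the replicate block FLT-Surgery against G-Surgery had 215 probes called, with Col2a1 at -4.89, not past the cut-off, and Prg4 at -5.46, and G-Surgery against G-Sham had 389. In the comparisons with FLT-Sham no paired analysis was possible because it shares 1 replicate number with G-Sham and none with FLT-Surgery. Members that were dim on most arrays, among them all of Sox9, Col10a1, Matn1, Hapln1 and Ihh, are limited by signal over background.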
